A study of Mus musculus with 2 samples.

Results

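The 10 genes described here, Rag1, Rag2, Dntt, Igll1, Vpreb1, Vpreb2, Il7r, Kit, Flt3 and Cd93, are used by B cell progenitors of the bone marrow, and the question was which of them still carried open chromatin in mature B cells of the spleen. They were taken as a named list out of 22350 protein-coding genes. All DNase I hypersensitive sites (DHS) that overlapped a gene or the 50 kb on either side of it were assigned to that gene. A DHS is a stretch of chromatin that the nuclease DNase I cuts more readily than DNA wrapped in nucleosomes.

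Splenic B cells came from C57/Bl6 mice of 8 weeks that were wild-type for p53 (Trp53+/+) and mock treated, and were enriched with magnetic beads against the surface marker B220. The series holds 2 libraries of these cells, 1 DNaseI library and 1 input library, and there is no second group, no progenitor sample and no replicate. The processed data are 1 list of peaks, in which each DHS has a position on mouse build mm9 and a score given by the authors' peak caller. The scale of the score is not stated, so scores were only ranked and compared within the list. Read counts are not part of the list and the depth is unknown, and where no DHS is listed it can only be said that none was called. With 1 library all comparisons are descriptions of that library, without p-values.

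Progenitors rearrange their immunoglobulin genes with the recombinase encoded by Rag1 and Rag2, and terminal transferase, encoded by Dntt, adds bases at the joints. The first heavy chains are tested on the surface together with a surrogate light chain, built from the products of Igll1, Vpreb1 and Vpreb2. The receptors encoded by Il7r, Kit and Flt3 bind the growth factors that carry lymphoid progenitors through these stages, and Cd93 encodes the surface protein by which immature B cells are recognised. Mature B cells have completed rearrangement and show an ordinary light chain.

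Of 47474 DHS on chromosomes 1 to 19 and X, 76 lay in the windows of the 10 genes. The windows of Rag1 and Rag2 shared 9 of these DHS and those of Igll1 and Vpreb1 shared 7. In all, 9 of the 10 windows held at least 1 DHS, against 77.0% of all protein-coding genes, and the exception was Kit. Most of the strong sites near these genes were not at their promoters. The strongest DHS of the 76 lay between genes upstream of Dntt, and the strongest site inside any of the genes was in an intron of Flt3.

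The sequences below belong to sites and start regions that are described in the results. Each is the central 200 bases of a DHS, or the 200 bases upstream of a start site, read 5′ to 3′ along the strand of the gene named, from mm9. The peak list marks no summit, so the centre is the midpoint of the listed interval. Capitals mark short words known from the binding sites of B cell factors, on either strand: CAGCTG and CAGGTG (E2A), GAGGAAG (PU.1 and other Ets factors), TTCNNNGAA (STAT5), CCCNNGGG (EBF1), TGTGGT (RUNX), AGGGGGC (CTCF) and ATGCAAAT (the octamer bound by Oct factors). TGGGAA (Ikaros) and GTAAACA (FOXO) were also searched and are not present in these stretches. The first group holds the strongest DHS at or nearest to Dntt, Flt3, Rag1, Il7r, Cd93 and Igll1:
Dntt, 12.9 kb upstream, chr19:41090721-41090920: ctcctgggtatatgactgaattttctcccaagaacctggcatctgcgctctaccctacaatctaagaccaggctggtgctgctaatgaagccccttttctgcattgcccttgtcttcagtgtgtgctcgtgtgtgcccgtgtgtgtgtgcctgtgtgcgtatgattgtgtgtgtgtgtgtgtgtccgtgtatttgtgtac
Flt3, intron 20, chr5:148150690-148150889: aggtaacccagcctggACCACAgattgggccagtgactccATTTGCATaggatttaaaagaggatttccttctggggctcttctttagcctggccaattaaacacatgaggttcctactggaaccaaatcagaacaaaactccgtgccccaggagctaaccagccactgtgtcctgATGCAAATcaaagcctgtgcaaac
Rag1, 3.43 kb upstream, chr2:101492990-101493189: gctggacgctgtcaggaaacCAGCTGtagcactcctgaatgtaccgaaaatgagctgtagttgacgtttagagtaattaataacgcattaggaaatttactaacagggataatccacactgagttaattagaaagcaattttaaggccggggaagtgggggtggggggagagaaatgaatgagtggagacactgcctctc
Il7r, start of the gene, chr15:9459701-9459900: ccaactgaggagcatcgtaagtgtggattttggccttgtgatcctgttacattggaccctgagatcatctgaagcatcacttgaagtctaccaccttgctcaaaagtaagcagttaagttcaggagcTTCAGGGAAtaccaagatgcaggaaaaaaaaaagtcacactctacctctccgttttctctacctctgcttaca
Cd93, coding sequence of the gene, chr2:148267981-148268180: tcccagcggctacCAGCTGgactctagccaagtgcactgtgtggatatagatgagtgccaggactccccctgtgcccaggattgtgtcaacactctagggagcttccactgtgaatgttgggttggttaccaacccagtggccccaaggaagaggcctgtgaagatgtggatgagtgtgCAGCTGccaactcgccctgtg
Igll1, 8.95 kb downstream of the start, chr16:16855033-16855232: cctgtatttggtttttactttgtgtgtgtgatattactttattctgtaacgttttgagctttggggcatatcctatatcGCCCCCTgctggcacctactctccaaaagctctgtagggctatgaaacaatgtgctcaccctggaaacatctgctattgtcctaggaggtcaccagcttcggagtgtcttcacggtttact

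The next group holds stretches upstream of coding start sites that no DHS covered, in the near copies Vpreb1 and Vpreb2 and in Kit:
Vpreb1 promoter, chr16:16869349-16869548: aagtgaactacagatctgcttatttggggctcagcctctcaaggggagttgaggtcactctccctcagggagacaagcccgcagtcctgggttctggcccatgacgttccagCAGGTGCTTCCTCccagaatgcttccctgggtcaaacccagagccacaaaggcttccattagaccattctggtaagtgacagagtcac
Vpreb2 promoter, chr16:17980314-17980513: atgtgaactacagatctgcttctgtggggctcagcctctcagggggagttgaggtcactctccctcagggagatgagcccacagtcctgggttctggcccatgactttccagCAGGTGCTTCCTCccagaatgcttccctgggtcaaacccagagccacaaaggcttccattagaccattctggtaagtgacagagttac
Kit promoter, chr5:75970741-75970940: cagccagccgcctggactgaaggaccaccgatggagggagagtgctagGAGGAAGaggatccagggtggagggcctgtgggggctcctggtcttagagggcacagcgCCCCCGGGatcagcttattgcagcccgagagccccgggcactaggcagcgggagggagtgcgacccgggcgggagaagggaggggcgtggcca

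**Figure D1:**
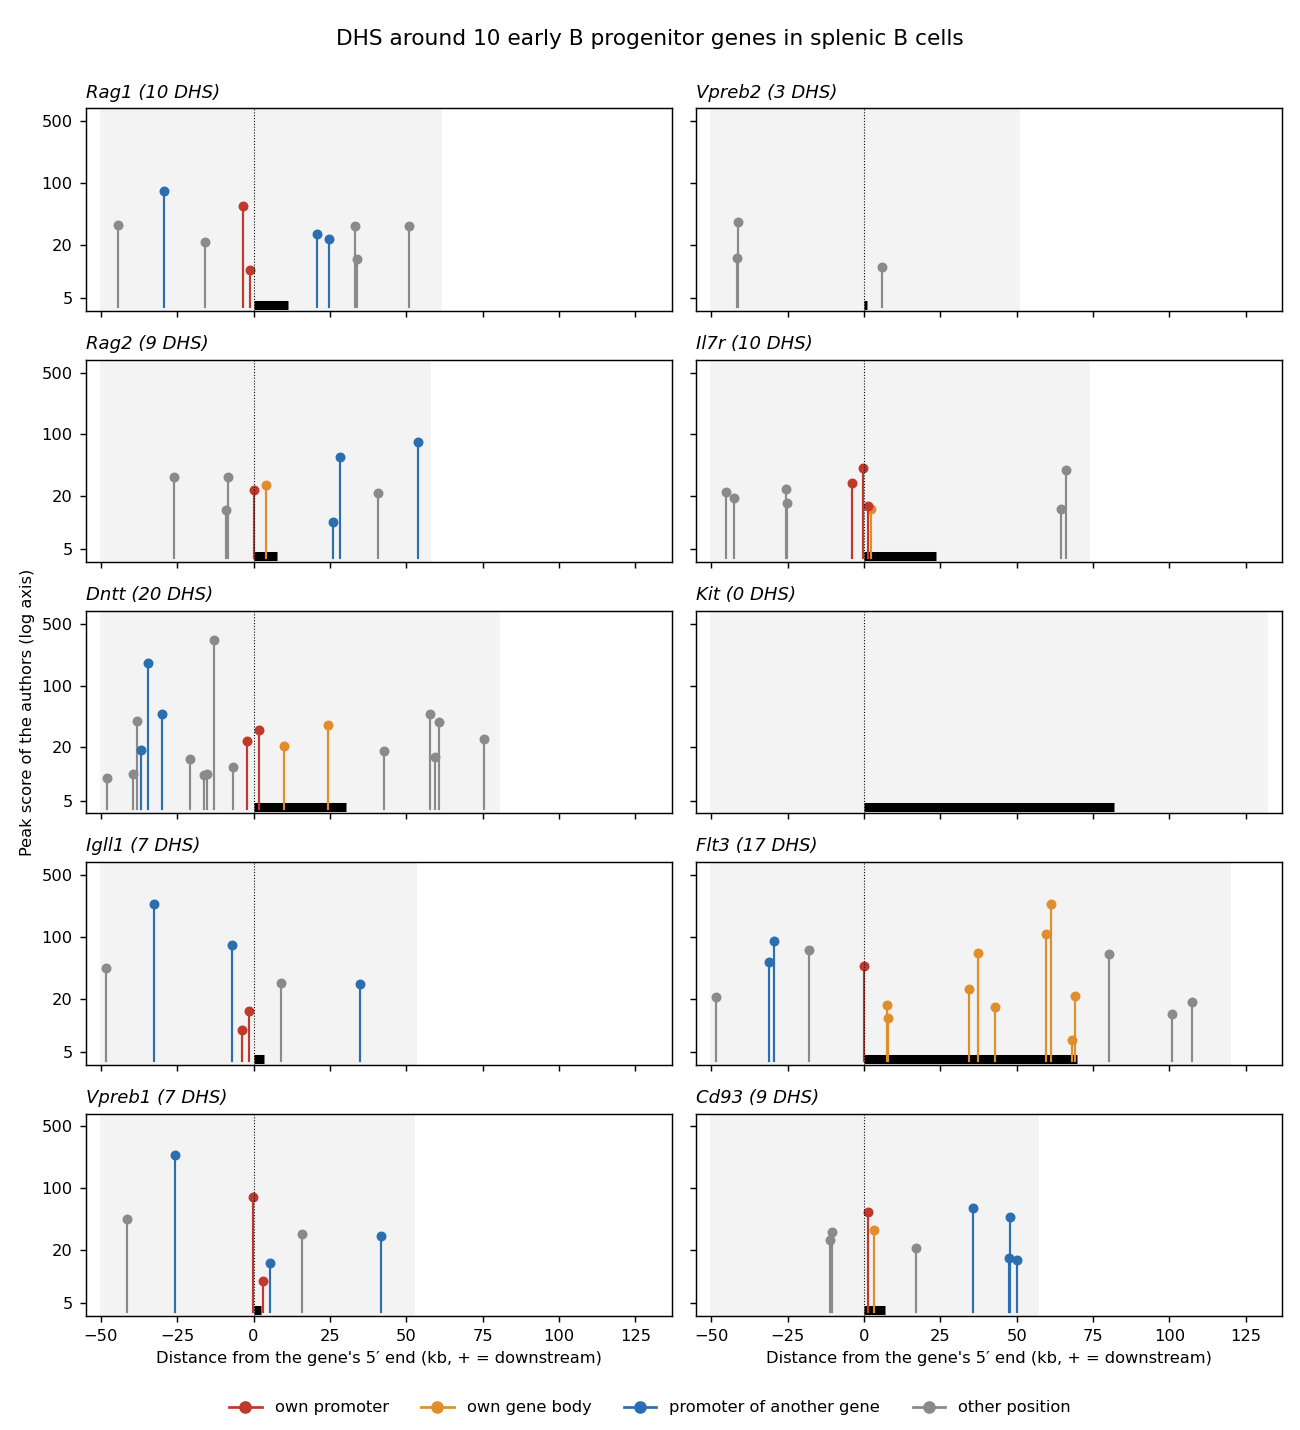
Each panel is 1 gene, with the distance of the DHS midpoint from the 5′ end of the gene in kb on the x axis (positive is downstream) and the score of the authors' peak caller on a logarithmic y axis. The black bar is the gene, the grey area the window, and a DHS that falls in several classes takes the first of the order in the legend; the Dntt site at 333 and the Flt3 intron site at 234 stand out, and the Kit panel is empty.

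The number of DHS differed widely between the genes. Dntt had 20 in its window and Flt3 17, more than were found around 97.8% and 95.4% of all protein-coding genes. Rag1 and Il7r had 10 each, Rag2 and Cd93 9 each, and Igll1 and Vpreb1 7 each. Vpreb2 had 3, and 36.3% of all protein-coding genes had fewer. Kit had 0. The median was 9 DHS per window, against 5 over all protein-coding genes. Because long genes have long windows, the density was also computed, and it had a median of 8.22 DHS per 100 kb against 3.38 over all protein-coding genes. By density, Dntt ranked highest with 15.4 and Flt3 followed with 10.01 DHS per 100 kb.

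Many of these DHS belong to neighbours. Of the 76 DHS, 13 overlapped the promoter of at least 1 of the 10 genes, defined as the 5 kb before and the 2 kb after each annotated transcription start site (TSS). A further 14 lay in the gene bodies, 12 at promoters of other genes, 17 in the bodies of other genes and 20 between genes. The DHS at promoters of other genes had the highest scores by class, with a median of 49.8, against 32.6 in the bodies of other genes, 28.1 at the promoters of the 10 genes, 23.8 in their bodies and 20.1 between genes. For 46 of the 76 DHS the nearest TSS was that of another protein-coding gene. In the whole list, 33 DHS were nearest to 1 of the 10 genes, 30 of them inside the windows, with a median of 1.5 per gene against 1 over all protein-coding genes, and their median score of 22.1 was below the 32.7 of the whole list. Of these 33, 6 (18.2%) reached the median score of the list.

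**Figure D2:**
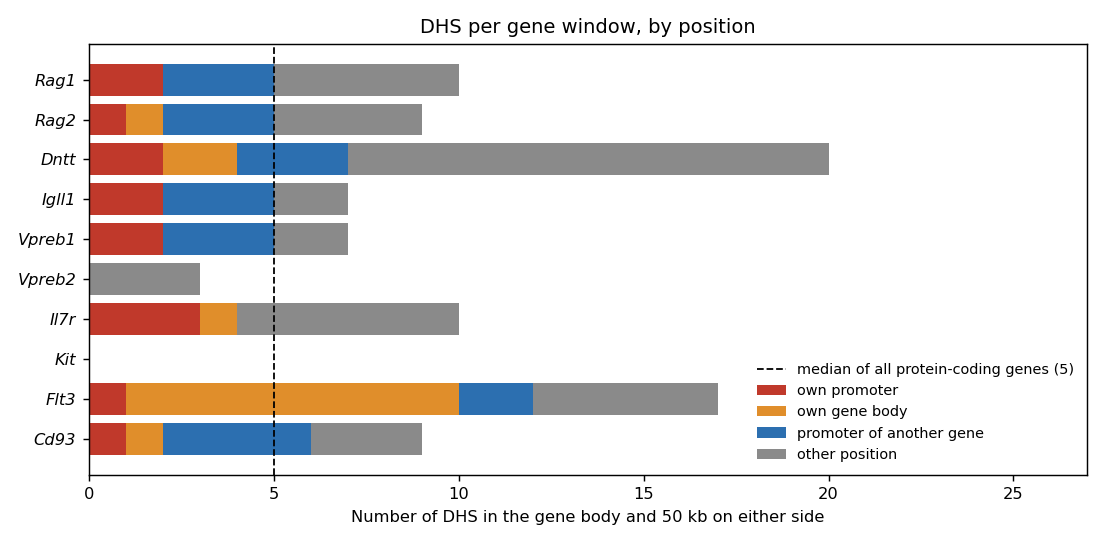
Number of DHS in the gene body and 50 kb on either side of each gene (x axis), divided by position in the order of the legend. The dashed line is the median of all protein-coding genes; Dntt and Flt3 have the longest bars, and the Flt3 bar is mostly gene body while the Dntt bar is mostly outside the gene.

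At the level of promoters, 8 of the 10 genes had a DHS within 5 kb upstream to 2 kb downstream of a TSS, against 57.0% of all protein-coding genes. Kit and Vpreb2 had none. Of the 13 promoter DHS, 5 also overlapped the promoter of another gene outside the list. When the distance was held to 1 kb on either side of a TSS, 5 genes remained, namely Rag2, Vpreb1, Il7r, Flt3 and Cd93, against 53.7% of all protein-coding genes. The same 5 had a DHS over a TSS itself, where the background was 46.6%. Counting only TSSs of protein-coding transcripts, Vpreb1 dropped out and 4 genes were left, against a background of 45.1%. The share of the 10 genes was thus above the background at the wide window and near it at the narrow windows. In bulk cells, a site open in few cells and a site weakly open in all cells cannot be told apart.

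The base composition of promoters bears on this comparison, since CpG-rich promoters are open in most cell types. The CpG-rich class was defined by the 1000 bp around the 5′ end of the gene, in which GC content had to reach 55% and the CpG count 0.6 of that expected from the base composition. Of the 10 genes, only Kit and Flt3 met this rule. Among CpG-rich promoters 84.5% had a DHS within 1 kb, and of these 2 genes Flt3 had one and Kit did not. Among CpG-poor promoters the share was 34.3%, and 4 of the 8 CpG-poor genes had one, namely Rag2, Vpreb1, Il7r and Cd93. The DHS of Rag2 was also at a promoter of an overlapping gene, B230118H07Rik, and that of Vpreb1 was nearest to its neighbour Top3b. Vpreb1 was close to the limit, with 54.9% GC. Its 5′ end in this measure is a noncoding start at position 16870936, near the Top3b TSS at 16870829, and not its coding start.

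Within the body of the gene, 6 of the 10 genes had a DHS, against 57.9% of all protein-coding genes. Rag2, Dntt, Vpreb1, Il7r, Flt3 and Cd93 had one, and Rag1, Igll1, Vpreb2 and Kit did not. When the centre of the DHS had to lie inside the gene, 5 genes remained, without Vpreb1. When DHS at promoters of other genes were left out, 4 genes remained. The 57.9% counts any overlap and is no background for these stricter counts. The background differed with gene length. Igll1, Vpreb1 and Vpreb2 are in the shortest quartile of genes, where 26.1% had a DHS in the body, and of the 3 only Vpreb1 had one. That DHS was the one at the Top3b TSS, with its midpoint 125 bp upstream of Vpreb1. Kit and Flt3 are in the longest quartile, where the share was 72.3%, and of these only Flt3 had any.

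Rag1 and Rag2 lie next to each other on chromosome 2 and point toward each other, so their 3′ ends face a stretch of 5753 bp in which no DHS was called. No DHS fell in the body of Rag1 (chr2:101478439-101489658, minus strand). Upstream of Rag1, a weak DHS with a score of 10.3 lay 1.32 kb from the start and a stronger one with 55.4 lay 3.43 kb from it. The latter, shown above, scored higher than 68.3% of all DHS and held 1 CAGCTG word in its centre. Both were inside the promoter window but beyond 1 kb of the Rag1 TSS. Rag2 (chr2:101464875-101472685, plus strand) had a DHS with a score of 23.3 over its TSS, in exon 1 and intron 1, and another with 26.6 in intron 2, 4.01 kb downstream of the start. The site over the Rag2 TSS was in the lower part of promoter sites, as 7.64% of the 11991 genes with a DHS within 1 kb of a TSS had a lower top score. A further gene, B230118H07Rik, overlaps this locus. Its annotated starts include some near the upstream end of Rag1, inside Rag2 and upstream of Rag2. Both DHS of Rag2 and both upstream DHS of Rag1 were thus also promoter DHS of B230118H07Rik. They cannot be given to 1 gene by position alone. The strongest DHS of the window, with a score of 80.9, was at the promoter of Traf6, which encodes a signalling adaptor of the NF-κB pathway, 29.2 kb upstream of Rag1.

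Dntt (chr19:41103765-41134013, plus strand) had the richest window. None of its 20 DHS was within 1 kb of the TSS. The closest ones were a site with a score of 23.9 at 2.29 kb upstream and a site with 31.3 in intron 1, at 1.77 kb downstream. Both were below the median score of the list. Further sites in the gene had a score of 20.8 at exon 3 and the introns on both sides of it, and 35.9 at exon 9 and intron 9. By contrast, the DHS at chr19:41090068-41091574, 12.9 kb upstream of Dntt and 1507 bp wide, had a score of 333, higher than 99.4% of all DHS. It lay in no gene, overlapped no promoter, and Dntt was the protein-coding gene with the nearest TSS. Its centre held none of the words searched and was rich in tg repeats toward its 3′ end. Of the 31-base words in this DHS, 3.18% occur more than once in the assembly, so that repeated sequence was a small part of it. Sites with scores of 9.80, 10.1 and 11.9 stood on either side of it, at 16.4, 15.3 and 6.78 kb upstream of Dntt.

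The gene on the other side of this site is Blnk, which encodes an adaptor of B cell receptor signalling that mature B cells also use. The promoter of Blnk, 34.5 kb upstream of Dntt, carried a DHS of 4412 bp with a score of 182, and 2 further promoter DHS of Blnk had 18.8 and 47.8. Downstream of Dntt, sites in Opalin and Tll2 had scores between 15.5 and 48.1. The Dntt window thus held a strong distal site while its own promoter region held weak ones.

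The genes of the surrogate light chain had few and weak sites of their own. Igll1 (chr16:16860764-16864078, minus strand) and Vpreb1 (chr16:16868495-16870936, minus strand) are 4416 bp apart on chromosome 16, with 2 DHS between them whose scores were 14.4 and 8.92. The first was 1.35 kb upstream of Igll1 and the second 3.79 kb upstream of it. The second was nearest to Vpreb1, 1480 bp downstream of its coding start, and lay in the promoter windows of Igll1, Vpreb1 and Top3b. No DHS fell in the body of Igll1 or within 1 kb of its TSS. Downstream of Igll1, a site at 8.95 kb from the start had a score of 30.5. It held an AGGGGGC word, read on the opposite strand, in the centre shown above. That word was present in 5.77% of the 200-base centres of all DHS. Besides the weak site of 8.92, Vpreb1 had a promoter DHS with a score of 80.1. This DHS covered chr16:16870283-16871838, where Top3b, which encodes a DNA topoisomerase, has its TSS at position 16870829. Noncoding transcripts of Vpreb1 start at position 16870936 in the same DHS, while the coding transcript starts at position 16869348, which is 935 bp from the edge of the DHS. The DHS was nearest to Top3b. The strongest site of this window, with a score of 237, was at the promoter of Ppm1f, which encodes a protein phosphatase, and the promoter of Spag6 had one with 29.1.

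Vpreb2 (chr16:17980514-17981366, plus strand) lies on the same chromosome and had no promoter or body DHS. The nearest one was 6.05 kb downstream of the start, with a score of 11.2, and the other 2 of its window were 41.1 and 41.6 kb upstream, with scores of 36.2 and 14.2. Vpreb1 and Vpreb2 are near copies. Their coding sequences were identical at 420 of 429 positions (97.9%), and the 200 bases upstream of the coding TSS at 191 of 200 (95.5%). Both stretches, shown above, held the words CAGGTG and GAGGAAG side by side, the latter on the opposite strand. Taken singly, these words were present in 13.6% and 8.82% of the same stretches of 22342 protein-coding genes. Within 1 kb of the coding TSS, 29.3% of the 31-base words at Vpreb1 and 27.8% at Vpreb2 occur more than once in the assembly, and in the body of Vpreb2 49.3% do. How reads that match both copies were treated is not stated, so the absence of a called DHS at these promoters is less certain than elsewhere. At Rag1, Dntt and Igll1, which had a promoter DHS only beyond 1 kb, the share around the TSS was 0.913%, 0.203% and 0.863%.

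Il7r, which encodes the receptor chain for interleukin 7 (chr15:9435916-9459631, minus strand), had 4 DHS at its promoter or in its body. A DHS with a score of 42.1 covered the TSS, exon 1 and the start of intron 1. A site with 15.5 and a site with 14.2 followed in intron 1, at 1.40 and 2.36 kb downstream, and a site with 28.1 lay 3.87 kb upstream. All 4 were nearest to Il7r, and none overlapped the promoter of another gene. The centre of the site over the TSS held TTCNNNGAA, a word present in 5.45% of the 200-base centres of all DHS. Farther upstream, 4 sites between genes lay at 25.1, 25.6, 42.5 and 45.1 kb, with scores of 16.9, 24.1, 19.2 and 22.1. In the sites at 25.1 and 25.6 kb, 16.3% and 25.2% of the 31-base words are repeated in the assembly. Of the genes with a DHS within 1 kb of a TSS, 16.2% had a lower top score than Il7r. The remaining 2 sites of the window were in the body of Capsl, with scores of 14.2 and 39.7.

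Kit, which encodes the receptor for stem cell factor, was the only gene with an empty window (chr5:75970941-76052747 with 50 kb on either side, 181.8 kb in all). The nearest DHS were 417.7 kb to the left and 178.7 kb to the right of the gene. The gap between them was 678.2 kb and held Kit as its only protein-coding gene. Gaps at least as long made up 1.41% of the 47454 gaps between neighbouring DHS, and the median gap was 7.21 kb. An empty window is not rare among long ones, since 642 (21.5%) of 2986 genes with a window at least as long as that of Kit had none. It was less frequent among genes with a CpG-rich promoter, of which 6.38% had none. No 31-base word within 1 kb of the Kit TSS is repeated, and in the gene 5.69% are. The 200 bases upstream of Kit, shown above, held a GAGGAAG and a CCCNNGGG word. These words were present in 8.82% and 11.1% of the same stretches of 22342 protein-coding genes.

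Flt3, which encodes the receptor for the FLT3 ligand, showed the opposite picture (chr5:148142317-148212065, minus strand). Its body held 10 DHS, more than 93.4% of the genes in the longest quartile. The site over the TSS had a score of 46.8, and 18.4% of genes with a DHS within 1 kb of a TSS had a lower top score. Far stronger sites lay near the 3′ end. A DHS in intron 20 (chr5:148150277-148151302) had a score of 234, above 97.8% of all DHS, and its neighbour at 59.5 kb from the start, over exon 20 and the introns on both sides, had 109. Of the 40 DHS in the windows that were at a promoter or body of the 10 genes or nearest to them, these 2 and the one upstream of Dntt were the only 3 with a score above 100. In intron 9, sites at 34.3 and 37.3 kb had scores of 26.1 and 65.5. The other 5 sites in the body, in introns 1, 10 and 23 and at exon 24, had scores between 6.83 and 21.6.

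The centre of the intron 20 site held the octamer ATGCAAAT in 2 copies, starting at bases 41 and 177 of the stretch shown, the first on the opposite strand. This word was added after the sequence had been seen. At least 1 copy was present in 1.08% of the 200-base centres of all DHS and at least 2 copies in 17 of 47474. A TGTGGT word on the opposite strand was also present, as in 14.4% of all centres. Upstream of Flt3, a site at 18.1 kb with a score of 70.4 lay between genes and was nearer to the TSS of Pan3, which encodes a subunit of a deadenylase, and the promoter of Pan3 had 2 sites with 89.9 and 51.8. The DHS of 63.8 downstream of Flt3 was in the body of Prhoxnb. Plasmacytoid dendritic cells express Flt3 and carry B220, so they could be retained by the selection. Of 4 markers of these cells, Bst2, Ccr9 and Tcf4 had a DHS within 1 kb of a TSS and Siglech had none, also in the wider promoter window. Tcf4 and Bst2 are also used by B cells. The part of these cells in the Flt3 sites was not tested.

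Cd93 (chr2:148262376-148269299, minus strand) had a wide DHS, 3208 bp over the TSS, exon 1 and part of exon 2, with a score of 54.4. Of genes with a DHS within 1 kb of a TSS, 22.0% had a lower top score. The centre of this DHS, shown above, held CAGCTG in 2 copies. A second DHS in exon 2 had a score of 34.1. A pair of DHS at 10.4 and 11.1 kb upstream had 31.9 and 26.3, and a site at 17.2 kb downstream of the start had 21.01. The other 4 DHS of the window were at promoters of other genes. The site at Thbd, which encodes thrombomodulin, had a score of 60.2, and 3 sites at Sstr4 had scores between 15.6 and 47.5. Cd93 is also expressed by transitional B cells, which are recent arrivals in the spleen and carry B220, and by myeloid cells. Of 6 myeloid markers, Cd14 and Itgam had a DHS within 1 kb of a TSS, with scores of 51.1 and 18.2, and the promoter window of Elane held one farther out. Csf1r, Lyz2 and S100a8 had none at their promoters, and 2 DHS lay in the body of Csf1r. The cells were selected on B220, and the share of myeloid cells left after the selection cannot be read from the peak list. The part of either cell type in the Cd93 sites was not tested.

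**Figure D3:**
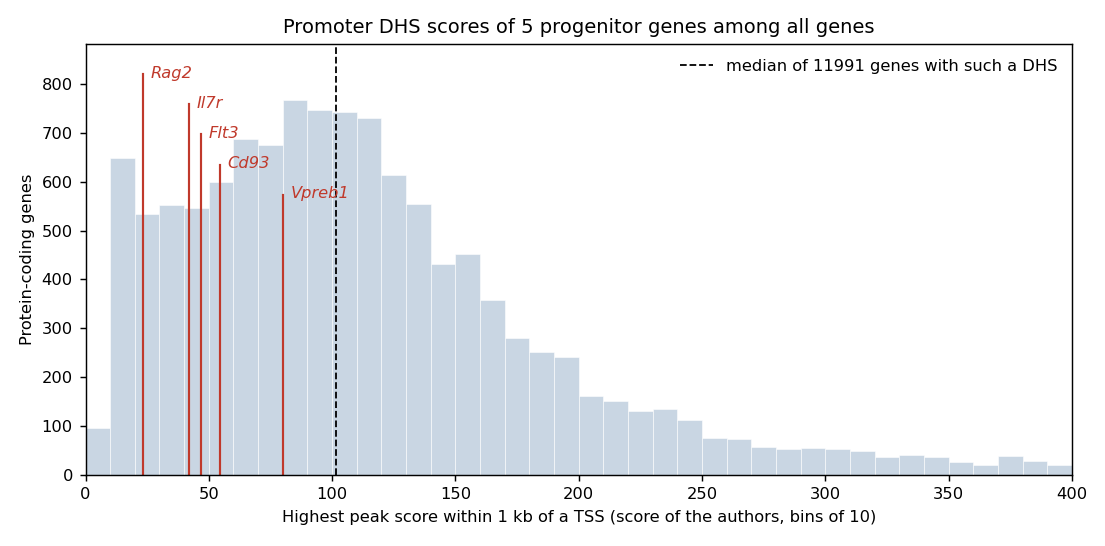
Histogram of the highest score of a DHS within 1 kb of a TSS over 11991 protein-coding genes with such a DHS (bars, x axis in score units of the authors' peak caller, cropped at 400, y axis in genes), with the 5 progenitor genes that have one as red lines. All 5 lie to the left of the dashed median at 102, between 23.3 for Rag2 and 80.1 for Vpreb1, where the DHS is shared with Top3b.

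The 5 genes with a DHS within 1 kb of a TSS all had scores below the median top score of 102 over all genes with such a DHS, of which the central part between the quartiles spanned 60.4 to 152. Only Vpreb1 lay inside that range, through the site it shares with Top3b. Genes of mature B cells served as reference. All 9 that are reported (Ms4a1, Cd79a, Cd79b, Cr2, Fcer2a, Cd22, Tnfrsf13c, Pax5 and Blk) had a DHS within 1 kb of a TSS, with a median top score of 109 and the highest, 265, at Pax5. Of the progenitor genes, Vpreb1 scored above Fcer2a with 72.1 and Tnfrsf13c with 78.8, through the DHS it shares with Top3b, and the other 4 scored between 23.3 and 54.4. Since the list is given without genes that are not reported here, no separation of the scores is read from it. The median number of DHS per window was 15 for the mature B cell genes. Of 12 other genes of early haematopoietic or lymphoid progenitors, 10 had a DHS within 1 kb, with a median top score of 63.5. The exceptions were Cd34, a surface marker of early progenitors with 4 DHS in its window, and Gata2, a transcription factor of stem and progenitor cells that had a DHS only in the wider promoter window.

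The partners of the 10 genes mostly had promoter DHS. Of 9 genes of V(D)J recombination that are not specific to lymphocytes, namely end-joining genes and the DNA-bending cofactors Hmgb1 and Hmgb2, 8 had a DHS within 1 kb of a TSS, with a median top score of 140, and Nhej1 had none. Of 9 receptor partners, ligands and signalling genes, 8 had one. Kitl, which encodes the ligand of Kit, was the exception and, like Kit, had 0 DHS in its window, while Flt3l, the gene of the FLT3 ligand, had a promoter site of 71.6. Il7, the gene of the Il7r ligand, had 11.6. All 8 transcription factors examined that regulate progenitor genes (Ebf1, Tcf3, Tcf12, Ikzf1, Foxo1, Runx1, Bcl11a and Myb) had a DHS within 1 kb, with a median top score of 140. Over all protein-coding genes 53.7% had a DHS within 1 kb, with 84.5% for CpG-rich and 34.3% for CpG-poor promoters. The lists hold genes of both classes and were not matched for them. They were compared by counts and medians, without a test.

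**Figure D4:**
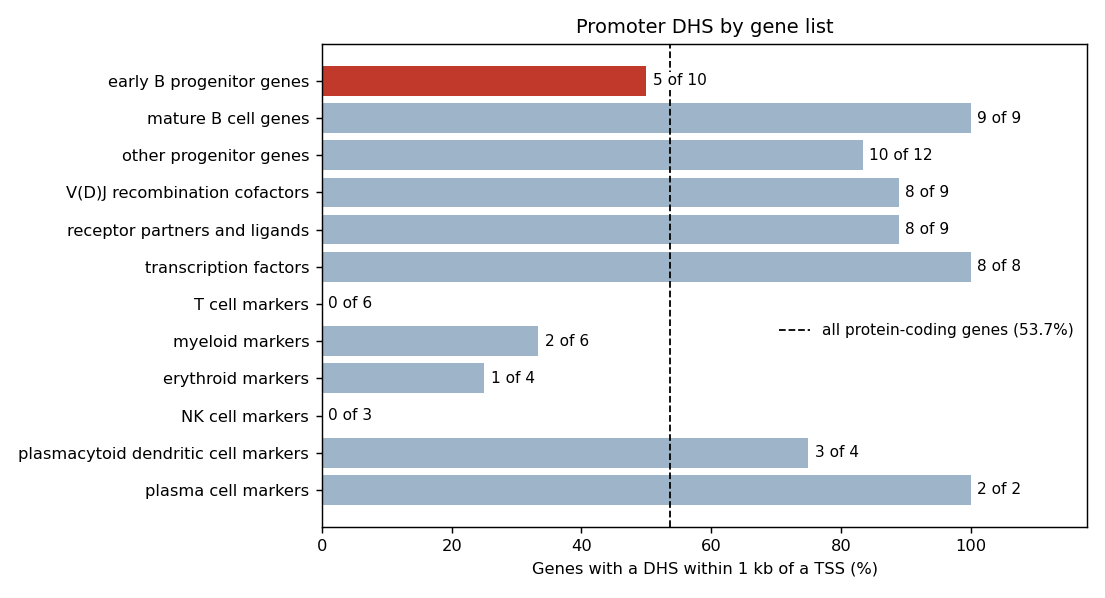
Share of genes with a DHS within 1 kb of a TSS (x axis, percent) for each gene list, with the number of genes beside each bar and the dashed line at 53.7% of all protein-coding genes. The early B progenitor genes (red, 5 of 10) sit next to that line, while the mature B cell genes reach 9 of 9 and the T cell markers 0 of 6.

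The label of the sample was checked against markers of other cells. All 6 mature B cell markers (Ms4a1, Cd79a, Cd79b, Cr2, Fcer2a and Cd22) had a DHS within 1 kb of a TSS, and none of 6 T cell markers had one, also in the wider promoter window, though 1 DHS lay in the body of Cd3d. Of 4 erythroid markers, Klf1 had one, with a score of 178, and Epor, Gata1 and Hbb-b1 had none. The Klf1 DHS did not cover a TSS of Klf1, and whether it is at the promoter of a neighbour was not tested. Of 3 NK cell markers none had one within 1 kb, and Klrb1c had one in the wider window and 4 in its body. Both plasma cell markers, Prdm1 and Sdc1, had one.

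The centres of the DHS were also compared by the words they held. The central 300 bp were searched in these 40 DHS, which lay in the windows and were at a promoter or body of the 10 genes or nearest to them, and in all 47474 DHS. The E-box words were the most frequent in the 40 DHS, with CAGGTG in 13 (32.5%, 95% interval 18.6% to 49.1%, exact Clopper-Pearson) against 24.1% of all DHS, and CAGCTG in 10 (25%, 12.7% to 41.2%) against 17.5%. CCCNNGGG was present in 5 (12.5%) against 12.7%, and GAGGAAG in 5 (12.5%) against 14.2%. TGTGGT was found in 8 (20%) against 20.6% and TGGGAA in 9 (22.5%) against 25.6%. TTCNNNGAA was found in 2 (5%) against 8.32%, AGGGGGC in 4 (10%) against 8.07%, GTAAACA in 1 (2.50%) against 3.63% and the octamer in 1 (2.50%) against 1.63%. The intervals cover counting error only, and neighbouring sites of 1 library are not independent, so these shares are given as a description and no difference is read from them. Median GC content was 48.5% in the 40 centres and 50% over all. Where words overlapped, each was counted, and CAGCTG, CCCNNGGG and TTCNNNGAA read the same on both strands. A match is a description of letters and not of binding.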

How the data were processed

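Splenic B cells were freed of apoptotic cells on a Ficoll gradient, and their nuclei were digested with a series of DNase I amounts. Per the methods of the study, qPCR served to choose the digest, and its short fragments were selected and sequenced. Per the labels, the submitters' processing notes name BWA 0.6.2, SAMtools and mm9. The authors deposited 1 peak list with MACS peak names and a score for each peak (5.05 or higher). The study's methods give a MACS version and a p-value threshold for ChIP-seq peaks. For the DNaseI peaks, the meaning of the score, the MACS version and settings and the use of the input are not given in the sources used here. The input library was otherwise not analysed here. Depth is unknown and no precision can be stated.

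Windows, promoters and gene bodies were taken from GENCODE M1 on the same build, for protein-coding genes on chromosomes 1 to 19 and X. An overlap of at least 1 bp counted. Each DHS was also given to the protein-coding gene with the TSS nearest to its midpoint. Repeated sequence was measured as the share of 31-base words found at 2 or more places of the assembly. Python 3.11.15, numpy 2.4.6 and pandas 2.3.3 were used, and interval counting was tested on simulated data. Named are the 10 genes, their promoter and body DHS, the genes whose promoter DHS lay in a window, and of each comparison list the members without a promoter DHS where fewer than 6 lacked one, otherwise those with one where fewer than 6 had one. Other sites were named after their values were seen. The 10 genes and the lists were chosen with earlier results of these data known. List genes without an annotation match were left out. A further 2 genes of the comparison lists are not reported here, and all list values are without them. Alternatives were another flank, a stricter score, merged peaks, peak centres, narrower promoters and another nearest-gene rule. No test was made, as there is 1 library.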

Additional observations from a re-analysis of the deposited data

How the results depend on the processing

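Of 30 alternative values, 19 stayed close to the reported ones (counts within 1.5 times) and 11 moved. The 76 DHS in the windows became 33 with a flank of 10 kb, 21 in the gene bodies alone and 29 with only DHS at or above the median score, and the median of 9 per window became 3.5, 1.5 and 3 by the same steps. All these settings take fewer sites by construction. The 8 genes with a promoter DHS became 5 at the stricter score (Rag1, Vpreb1, Il7r, Flt3 and Cd93), 5 within 1 kb of a TSS (Rag2 in place of Rag1), and 5 when DHS at promoters of other genes were left out. The share of genes with a promoter DHS was above the background at the reported window (57.0%) and below it within 1 kb (53.7%), and for a DHS over a TSS it was above with all TSSs (5 genes, 46.6%) and below with coding TSSs (4 genes, 45.1%). The 33 DHS nearest to the 10 genes became 6 at the stricter score, and their median score then rose from 22.1 to 50.6 by construction. Merging DHS closer than 500 bp, peak centres and a flank of 100 kb kept the counts within 1.5 times. The restriction to coding TSSs and the median score at the stricter threshold were added after the data had been seen. No paired analysis was possible because there is 1 library. The sequencing depth, which is unknown, limits all statements on sites that were not called.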
